A study of Mus musculus with 15 samples.

Results

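The genes described here are 8 genes of cholesterol synthesis, its control and cholesterol export, out of 54532 genes in the kidney expression table. They were chosen by symbol, and each symbol matched 1 Ensembl identifier of the GRCm38 annotation. The genes are Hmgcs1, Idi1, Fdft1, Sqle and Lss, which encode enzymes of cholesterol synthesis, Srebf2 and Insig1, which encode proteins that control it, and Abca1, which encodes a transporter that exports cholesterol. None of the 8 takes up cholesterol, so uptake genes are described from a wider list of 47 pathway genes that also holds the 8. The data came from 15 male C57BL/6 mice, 8 weeks old at the start, with 5 kidneys in each of 3 groups. Control mice (C group) ate a normal diet and received the vehicle, a saline with DMSO. Mice of the chronic kidney disease model (M group) ate 0.25% adenine for 4 weeks and then the standard diet, with the same vehicle. Mice of the treated group (AA group) ate the adenine diet in the same way and received 30 mg/kg asiatic acid (AA), a triterpene of Centella asiatica, by gavage each day through week 8. Adenine feeding injures the tubules through crystals and is a model of tubulointerstitial disease, and each value is from kidney tissue of 1 mouse. Which part of the kidney was used is not given in the sources used here.

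Cells make cholesterol from acetyl-CoA through mevalonate, isoprenoids, squalene and lanosterol. The enzymes of this route are transcribed under SREBP2, the product of Srebf2, which is released from the endoplasmic reticulum when sterols are low and held there by SCAP and the INSIG proteins when sterols are high. Insig1 is itself a target of SREBP2, whereas Abca1 and Abcg1 are targets of the liver X receptors (LXR), which are activated by oxysterols and favour export of cholesterol to apolipoproteins. In the kidney the proximal tubule takes up lipid and protein from the filtrate, and macrophages use ABCA1 to export the cholesterol of engulfed cells.

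Between 13647160 and 28883860 reads per library fell on genes, but mitochondrial genes held 53.0 to 62.5% of them in C libraries, 64.0 to 86.8% in M libraries and 69.2 to 87.2% in AA libraries. Genes above 0 numbered 11551, 10068 and 12222 in M mice 1 to 3, against 23040 and 25460 in M mice 4 and 5 and at least 18695 in every C and AA library. The 8 genes were covered by medians of 48 (Idi1) to 675 (Hmgcs1) reads per library, and the lowest counts were 2 reads of Idi1 in M mouse 1 and 0 reads of Abca1 in M mouse 2. Values were deposited as FPKM, the reads on a gene relative to its length and to a library divisor. The 10 proximal tubule markers summed to between 3174 and 13311 FPKM per C library, 92.7 to 547 per M library and 168 to 565 per AA library. The 8 macrophage markers summed to 17.9 to 118, 160 to 463 and 113 to 165 FPKM in the same order. Adrenal cortex markers, the tissue next to the kidney that uses cholesterol for steroids, summed to at most 3.56 FPKM in any library. Of these 6, 3 could be tested and 0 were called in any comparison, while Cyp11a1 passed the adjusted p alone, higher in AA vs. M (limma adjusted p = 0.0359) and AA vs. C (0.0314), as did Star, lower in AA vs. C (0.0455). In tissue of mixed cells, fewer cells of a type, less RNA per cell and another part of the kidney sampled cannot be told apart.

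FPKM is relative to the joined length of all annotated exons of a gene, so the order of genes depends on that length. By FPKM, Hmgcs1 stood far above the rest in the C group at 17.5 ± 10.1 (SD, n = 5). Srebf2 (2.57 ± 0.467), Insig1 (2.29 ± 0.727) and Fdft1 (2.27 ± 0.913) lay within each other's spread. Abca1 (1.26 ± 0.296) and Sqle (1.20 ± 0.294) also overlapped, and below them came Idi1 (0.833 ± 0.423) and Lss (0.580 ± 0.199). The order was another in the AA group, where Insig1 at 5.20 ± 1.44 and Abca1 at 3.50 ± 1.03 stood next to Hmgcs1 at 7.74 ± 1.84. These are levels of 1 kidney sample per mouse, and the differences between groups follow gene by gene.

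**Figure D1:**
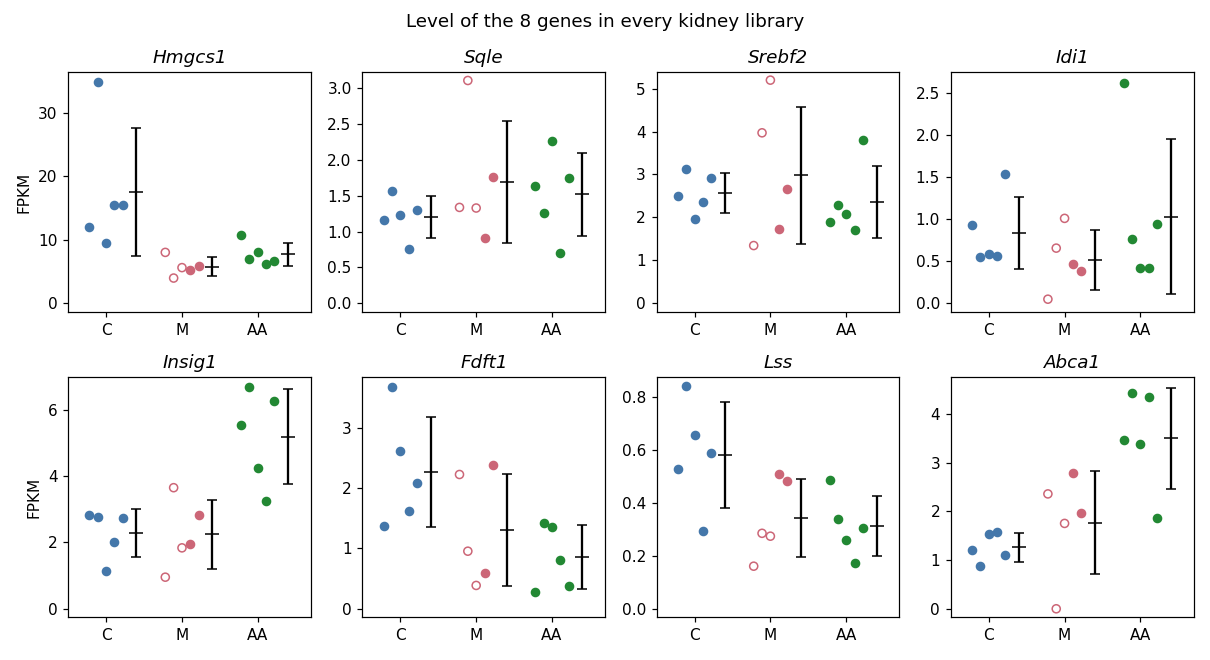
Level of the 8 genes in FPKM (vertical axis) in each of the 15 libraries by group, with a bar for the mean ± SD of 5 mice; open circles are M mice 1 to 3, which had few detected genes. All 5 M libraries of Hmgcs1 lie below the lowest C library, and all 5 AA libraries of Insig1 and Abca1 lie above the highest C library.

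Differences were tested with limma on log2(FPKM + 1), for every gene detected in 5 or more of the 10 libraries entering a comparison. A gene was called where its p, adjusted by Benjamini and Hochberg's method, did not exceed 0.05 and its log2 fold change reached 1 or -1. All 8 genes passed this filter in each comparison. The scale understates the fold of genes near or under 1 FPKM. The comparison of M with C asks what the disease model changed. No member passed (0 of 8, against 1.38% of 21153 genes called), and none passed on the adjusted p alone (0 of 8, against 1.47%). Hmgcs1 alone had an unadjusted limma p under 0.05 (1 of 8, against 16.5% of all genes) and groups that did not overlap (1 of 8, against 4.72%). limma voom on the reads recovered from the FPKM values called 0 of the 8 as well, against 1.77% of all genes. Over all genes 57 were called higher and 234 lower, against 132 and 207 with median centring of the libraries.

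The comparison of AA with M asks what AA changed in diseased kidneys. It again called 0 of the 8, against 12.8% of 19798 genes, and 0 of the 8 passed on the adjusted p alone, against 17.8%. No member had groups without overlap, against 13.2% of all genes, and voom called 0 of 8, against 20.2%. Insig1 had the only unadjusted limma p under 0.05 among the members (1 of 8, against 32.1% of all genes). Of the genes called, 2321 rose and 212 fell with AA, but this balance became 1584 to 695 after quantile normalization and 1213 to 1600 after centring on the library median. The members' median log2 fold change of 0.17 equalled that of all genes (0.17).

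AA with C, the third comparison, spans both the adenine diet and the treatment, and it shares libraries with each of the others. It called 0 of 8 members with the fold limit, against 19.8% of 21898 genes. On the adjusted p alone 4 of 8 passed, against 35.9%: Insig1 and Abca1 were higher and Hmgcs1 and Fdft1 lower in the AA group. The same number had an unadjusted p under 0.05 (4 of 8, against 46.8%). Groups did not overlap for Insig1 and Abca1 (2 of 8, against 24% of all genes). The 4 fold changes lay between 0.83 and 0.97 in size, and all 4 genes passed the fold limit as well under a pseudocount of 0.1 or 0.01 and with voom (4 of 8 each), where 34.1%, 29.5% and 35.3% of all genes were called. The calls over all genes split into 2241 higher and 2105 lower, against 862 and 5923 after scaling every library to the same total (TPM) and 1769 and 2638 after centring.

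**Figure D2:**
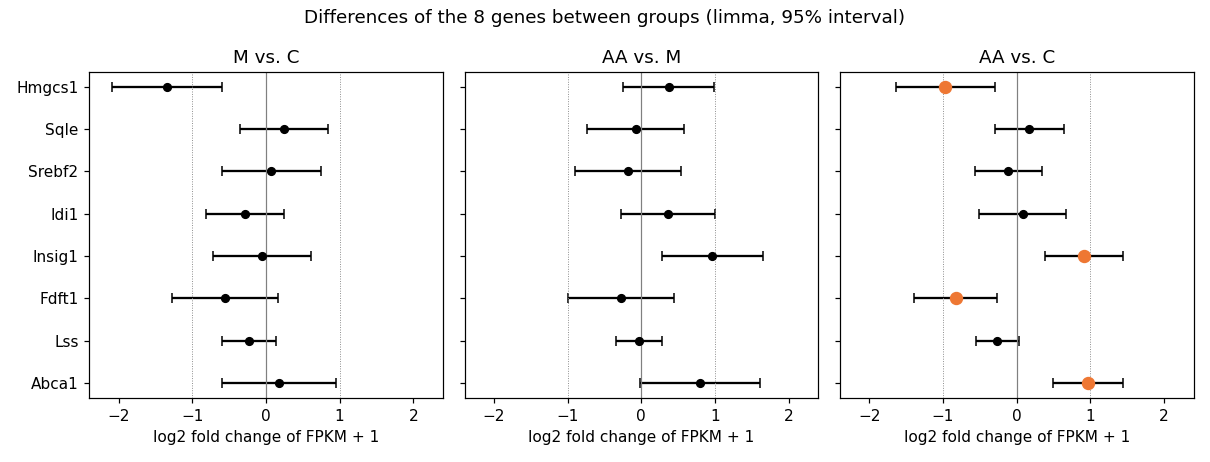
log2 fold change of FPKM + 1 (horizontal axis) of the 8 genes with the 95% limma interval, 1 panel per comparison; dotted lines mark a change of 1 and orange points an adjusted p not above 0.05. Orange points occur for AA vs. C only, at Hmgcs1 (-0.97), Insig1 (0.91), Fdft1 (-0.83) and Abca1 (0.97).

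Hmgcs1 encodes the cytosolic HMG-CoA synthase, which joins acetyl-CoA and acetoacetyl-CoA early in the mevalonate route, and lies on the plus strand at chr13:119690379-119708260. Its FPKM in C mice 1 to 5 was 12.1, 35.0, 9.53, 15.6 and 15.5. M mice 1 to 5 had 8.03, 3.98, 5.63, 5.32 and 5.95. The highest M value was thus below the lowest C value, and the means of M mice 1 to 3 (5.88 FPKM) and of mice 4 and 5 (5.64 FPKM) were close. AA mice 1 to 5 had 10.8, 6.95, 8.08, 6.21 and 6.66, above the M mean in every mouse but overlapping both other groups.

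The mean of Hmgcs1 in the M group was 0.330 times that of the C group, and the log2 fold change was -1.34 with a standard error of 0.344 (95% interval -2.08 to -0.60, limma adjusted p = 0.0788). The two-sided exact permutation test gave p = 0.00794, the smallest that 5 against 5 can give, unadjusted among 24 such tests (8 genes in 3 comparisons). Hmgcs1 passed the call in M vs. C with all 15 libraries in 1 fit (adjusted p = 0.0210), with TPM (log2 fold change -2.34, adjusted p = 0.00658) and without M mice 4 and 5 (-1.34, adjusted p = 0.0307), and missed it without M mice 1 to 3 (-1.35, adjusted p = 0.258). For AA vs. M the log2 fold change was 0.37 with a standard error of 0.291 (interval -0.25 to 0.99, adjusted p = 0.412), which turned to -0.15 when each library was centred on its median. Against the C group the AA group was lower by a log2 fold change of -0.97 (standard error 0.310, adjusted p = 0.0290). That adjusted p rose to between 0.0520 and 0.0584 without C mouse 5 or without AA mouse 2, 4 or 5, and to 0.0501 with the replicate number as a block.

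C mouse 2 had the highest Hmgcs1 level of all libraries and also the highest sum of proximal tubule markers, 13311 FPKM. Without it, the log2 fold change was -1.07 for M vs. C (adjusted p = 0.165) and -0.70 for AA vs. C (adjusted p = 0.0490). All 10 proximal tubule markers had a lower mean log2 value in M than in C, with 8 called (against 1.38% of all genes). All 10 were also lower in AA than in C, with 9 called (against 19.8%). The ranges of their sum did not overlap between C and either other group. Markers of other nephron segments were lower too. All 7 had a lower mean log2 value in M than in C, with 2 called (against 1.38%). In AA vs. C 4 were called lower (against 19.8%). These 7 summed to 111 to 502 FPKM in C mice, 15.7 to 102 in M mice and 37.0 to 69.5 in AA mice. The part of any of these cells in the Hmgcs1 difference was not tested. An antisense gene, Gm48342, overlaps its exons, and 13.1% of the 31-base words of Hmgcs1 occur in another gene. The strand setting of the counting is not given in the sources used here, so reads of the pair cannot be told apart.

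The promoter of Hmgcs1 is shown because the gene had the largest difference of the 8 between C and M. RefSeq (GRCm38.p6) held the 250 bases before and 50 after the start of 6 of the 8 genes, and Sqle and Fdft1 were not among them. Motifs of 3 kinds were searched on both strands: TCACNCCAC, the core of a sterol regulatory element to which SREBP binds, CCAAT, the site of NF-Y, and GGGCGG, the GC box of Sp1. The searched motifs do not share letters at the places found. Capitals mark them in the plus strand of the gene, where ATTGG and CCGCCC are CCAAT and GGGCGG on the other strand. The Hmgcs1 window is chr13:119690101-119690400, plus strand.
Hmgcs1: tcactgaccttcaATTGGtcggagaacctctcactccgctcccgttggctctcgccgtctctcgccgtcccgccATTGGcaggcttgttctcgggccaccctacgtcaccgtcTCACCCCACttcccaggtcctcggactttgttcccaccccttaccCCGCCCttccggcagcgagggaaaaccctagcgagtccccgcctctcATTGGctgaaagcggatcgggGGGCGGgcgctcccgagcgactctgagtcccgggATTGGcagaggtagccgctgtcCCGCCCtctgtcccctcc

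The sterol element core, as TCACCCCAC, began 137 bases before the Hmgcs1 start. It was found in no other member with a promoter at hand, and 1.24% of 32544 promoters held it. CCAAT occurred at 4 places in Hmgcs1, 2 in Idi1 and 1 each in Srebf2, Insig1 and Lss, and was absent from the Abca1 window, whereas 37.4% of all promoters held it. The GC box was in all 6 windows and in 35.9% of all promoters. A match is only a description of the letters, and its absence from these 300 bases says nothing about the factor.

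Idi1 encodes isopentenyl-diphosphate isomerase, which makes the allylic isoprenoid unit, at chr13:8885501-8892451 on the plus strand. C mice 1 to 5 had 0.933, 0.554, 0.588, 0.556 and 1.53 FPKM. M mice 1 to 5 had 0.0492, 0.655, 1.01, 0.467 and 0.384, and the AA mice 2.62, 0.759, 0.418, 0.416 and 0.939. The groups overlapped throughout, and 1 mouse, AA mouse 1, set the AA mean of 1.03 ± 0.916. The log2 fold changes were -0.28 for M vs. C (adjusted p = 0.586), 0.36 for AA vs. M (adjusted p = 0.436) and 0.080 for AA vs. C (adjusted p = 0.835) in limma. Their 95% intervals were -0.81 to 0.25, -0.28 to 1.00 and -0.51 to 0.67, and that of AA vs. M reached the fold limit. Quantile normalization and centring turned the sign of all 3 differences. Of its 31-base words, 27.1% occur in other genes, so some of its reads may belong to these. Gm13502 shares more of the words than any other gene. An antisense gene, Gm48574, overlaps the exons of Idi1.

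Fdft1 encodes squalene synthase, the first enzyme committed to sterols, at chr14:63145150-63179578 on the minus strand. Its levels in C mice 1 to 5 were 1.37, 3.67, 2.61, 1.62 and 2.08 FPKM. M mice had 2.22, 0.951, 0.383, 0.597 and 2.38, a range that reached from under to within the C range. AA mice had 0.278, 1.42, 1.36, 0.805 and 0.382, so only AA mouse 2 lay above the lowest C library. The log2 fold change of AA vs. C was -0.83 with a standard error of 0.262 (limma adjusted p = 0.0276), and the ratio of the means was 0.373. The adjusted p went to between 0.0517 and 0.0675 without C mouse 2, 3 or 5 or without AA mouse 1 or 5, and to 0.0514 with all 15 libraries in 1 fit. M vs. C (-0.56, interval -1.28 to 0.17, adjusted p = 0.428) and AA vs. M (-0.27, interval -0.996 to 0.447, adjusted p = 0.618) did not pass. Ctsb, a lysosomal cysteine protease gene, overlaps the exons of Fdft1 on the other strand. Of the 31-base words of Fdft1, 31.9% are shared, and Ctsb shares more of them than any other gene. Without the strand setting, reads of the 2 genes cannot be told apart.

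Sqle encodes squalene epoxidase, a rate-limiting oxygenase of the sterol branch, at chr15:59315077-59331192 on the plus strand. C mice 1 to 5 had 1.16, 1.57, 1.23, 0.756 and 1.30 FPKM. The M mice had 1.34, 3.11, 1.33, 0.916 and 1.76, and the AA mice 1.63, 1.26, 2.26, 0.701 and 1.75. The 3 groups overlapped almost fully. Log2 fold changes were 0.25 for M vs. C (interval -0.35 to 0.85), -0.077 for AA vs. M (-0.73 to 0.58) and 0.17 for AA vs. C (-0.30 to 0.64), with limma adjusted p of 0.668, 0.894 and 0.554. After TPM scaling the first and last were -0.41 and -0.57.

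Lss encodes lanosterol synthase, which closes the sterol rings, at chr10:76531588-76557138 on the plus strand. Its joined exons come to 10787 bases, against 3505 for Idi1, and in every C library Lss had more reads than Idi1 (107 to 470 against 66 to 180). By FPKM Lss was the lowest of the 8, with 0.525, 0.839, 0.656, 0.293 and 0.587 FPKM in C mice 1 to 5. The M mice had 0.160, 0.284, 0.273, 0.509 and 0.481, all under the C mean. The AA mice had 0.483, 0.339, 0.259, 0.171 and 0.305, again all under the C mean. At these levels a pseudocount of 1 compresses folds, and the ratios of means were 0.588 for M over C and 0.537 for AA over C. The log2 fold changes of -0.23 (interval -0.60 to 0.13, adjusted p = 0.518) and -0.26 (interval -0.56 to 0.028, adjusted p = 0.141) did not pass limma, while the unadjusted two-sided exact permutation tests gave p = 0.0476 and p = 0.0397. Quantile normalization and centring turned M vs. C to 0.11 and 0.13. AA vs. M was -0.030 (interval -0.34 to 0.28, adjusted p = 0.915). An antisense gene, 4930483K19Rik, overlaps the exons of Lss, and 3.29% of the 31-base words of Lss occur in another gene.

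Srebf2, at chr15:82147181-82205379 on the plus strand, encodes the transcription factor of the pathway. C mice 1 to 5 had 2.50, 3.13, 1.95, 2.35 and 2.92 FPKM. The M mice spread more widely, with 1.34, 3.97, 5.20, 1.73 and 2.66, and the highest pair was M mice 2 and 3. The AA mice had 1.88, 2.30, 2.09, 1.70 and 3.79. Log2 fold changes were 0.073 (interval -0.60 to 0.75, adjusted p = 0.914), -0.19 (interval -0.90 to 0.53, adjusted p = 0.748) and -0.11 (interval -0.57 to 0.35, adjusted p = 0.695) in limma for the comparisons of M with C, AA with M and AA with C in turn. Leaving out M mice 1 to 3 moved the first to -0.16 and the second to 0.052. These are transcript levels, and the processing of the SREBP2 protein that controls its activity is not measured by them.

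Insig1 encodes the endoplasmic reticulum protein that retains SCAP with SREBP2. It lies at chr5:28071363-28078662 on the plus strand. C mice 1 to 5 had 2.83, 2.76, 1.13, 2.02 and 2.72 FPKM, and the M mice had 0.947, 3.65, 1.83, 1.94 and 2.82. The M range spanned that of the C group. The AA mice had 5.53, 6.70, 4.24, 3.24 and 6.26, so every AA library was above every C library, and 4 of 5 were above every M library. AA mouse 4, the lowest, lay under M mouse 2.

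The AA mean of Insig1 was 2.27 times the C mean and 2.32 times the M mean, whereas the M mean was 0.976 times the C mean. For AA vs. M the log2 fold change was 0.96 with a standard error of 0.321 (interval 0.28 to 1.65), and the limma adjusted p of 0.0520 missed the threshold. Both parts of the call were passed without M mouse 2 (1.11, adjusted p = 0.0402), without M mouse 5 (1.04, adjusted p = 0.0424), without AA mouse 4 (1.09, adjusted p = 0.0494) and without M mice 4 and 5 (1.04, adjusted p = 0.0430). Without M mice 1 to 3 the difference was 0.85 (adjusted p = 0.137). It was 0.45 (adjusted p = 0.387) after centring and 1.15 (adjusted p = 0.104) with voom. For AA vs. C the log2 fold change was 0.91 with a standard error of 0.245 (interval 0.38 to 1.44, adjusted p = 0.0135), and the two-sided exact permutation p was 0.00794. With TPM the AA vs. C value was 0.081 (adjusted p = 0.839), on a scale where the median of all genes moved from 0.091 to -0.39.

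The Insig1 and Abca1 promoters are shown because these genes were higher in every AA library than in every C library. The windows are chr5:28071162-28071461 on the plus strand and chr4:53159846-53160145 on the minus strand of GRCm38.p6, from RefSeq, with the same motifs in capitals. Insig1 has 1 CCAAT and 3 GC boxes, the nearest 126 bases before the start, and Abca1 has GC boxes 163 and 97 bases before its start.
Insig1: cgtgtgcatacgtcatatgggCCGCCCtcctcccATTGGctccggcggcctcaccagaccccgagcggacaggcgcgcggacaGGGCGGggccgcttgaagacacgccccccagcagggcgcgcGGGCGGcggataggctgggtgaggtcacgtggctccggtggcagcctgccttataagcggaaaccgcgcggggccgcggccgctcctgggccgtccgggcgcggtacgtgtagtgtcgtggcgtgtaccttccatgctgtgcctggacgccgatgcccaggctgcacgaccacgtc
Abca1: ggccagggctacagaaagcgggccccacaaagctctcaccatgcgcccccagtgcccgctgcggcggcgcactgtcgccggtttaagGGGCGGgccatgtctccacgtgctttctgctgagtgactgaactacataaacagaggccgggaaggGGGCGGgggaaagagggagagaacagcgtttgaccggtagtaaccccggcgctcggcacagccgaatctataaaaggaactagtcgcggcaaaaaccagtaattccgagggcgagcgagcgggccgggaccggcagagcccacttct

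Abca1 encodes the transporter that passes cholesterol and phospholipid to apolipoprotein A-I, and lies at chr4:53030787-53159895 on the minus strand. None of its 31-base words occurs in another gene. C mice 1 to 5 had 1.21, 0.876, 1.53, 1.59 and 1.11 FPKM. M mice 1 to 5 had 2.36, 0, 1.76, 2.79 and 1.96, so 4 of 5 M libraries were above every C library and M mouse 2 had no read, where 3 reads would be 0.0277 FPKM. AA mice 1 to 5 had 3.47, 4.43, 3.38, 4.36 and 1.88. Every AA library was above every C library, and 4 of 5 were above every M library.

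The AA mean of Abca1 was 2.78 times the C mean, with a log2 fold change of 0.97 and a standard error of 0.221 (interval 0.49 to 1.45, limma adjusted p = 0.00619, two-sided exact permutation p = 0.00794). The difference was 1.42 with voom (adjusted p = 0.00221) and 1.12 without AA mouse 5 (adjusted p = 0.00299), and 0.27 with TPM (adjusted p = 0.577). AA vs. M gave 0.80 with a standard error of 0.380 (interval -0.019 to 1.61, adjusted p = 0.166), and without M mice 1 to 3 it was 0.39 (adjusted p = 0.479). M vs. C gave 0.17 (interval -0.60 to 0.95, adjusted p = 0.822), which moved to 0.51 without M mouse 2, to 0.58 without M mice 1 to 3 (adjusted p = 0.406) and to -0.74 with a pseudocount of 0.01, since the single 0 then weighs more. Macrophage markers moved with the groups in part. Of 8, 7 had a higher mean log2 value in M than in C, with 4 called higher (against 1.38% of all genes called). In AA vs. C 7 were higher, with 5 called higher and 1 called lower (against 19.8%). All 8 were lower in AA than in M, with 1 called (against 12.8%). Their sum was 356 to 463 FPKM in M mice 1 to 3, 160 and 162 in M mice 4 and 5, and 113 to 165 in AA mice. Abca1 in M mice 1 to 3 was 2.36, 0 and 1.76 FPKM, a mean of 1.37 that the single 0 of M mouse 2 lowers. Its mean was 2.37 FPKM in M mice 4 and 5 and 3.50 in AA mice. The sum of 6 fibroblast markers was 37.7 to 96.3 FPKM in C mice, 84.7 to 365 in M mice and 236 to 413 in AA mice. All 6 were called higher in AA vs. C (against 19.8% of all genes called). The 6 lymphocyte markers summed to 1.23 to 19.0 FPKM in C mice, 0 to 17.3 in M mice and 9.40 to 16.8 in AA mice. Of these, 2 were called higher in AA vs. M (4 tested, against 12.8% of all genes) and in AA vs. C (6 tested, against 19.8%). They were Cd3g, by 2.51 and 2.41, and Cd3e, by 1.23 and 1.15 on the log2 scale. The 5 adipocyte markers summed to 0.522 to 87.2, 0 to 1.26 and 2.55 to 29.3 FPKM in the same order of groups. In AA vs. M 1 of 3 tested, Cfd, was called higher (1.96, limma adjusted p = 0.0276, against 12.8% of all genes called). The part of any of these cell types in the Abca1 and Insig1 values was not tested.

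**Figure D3:**
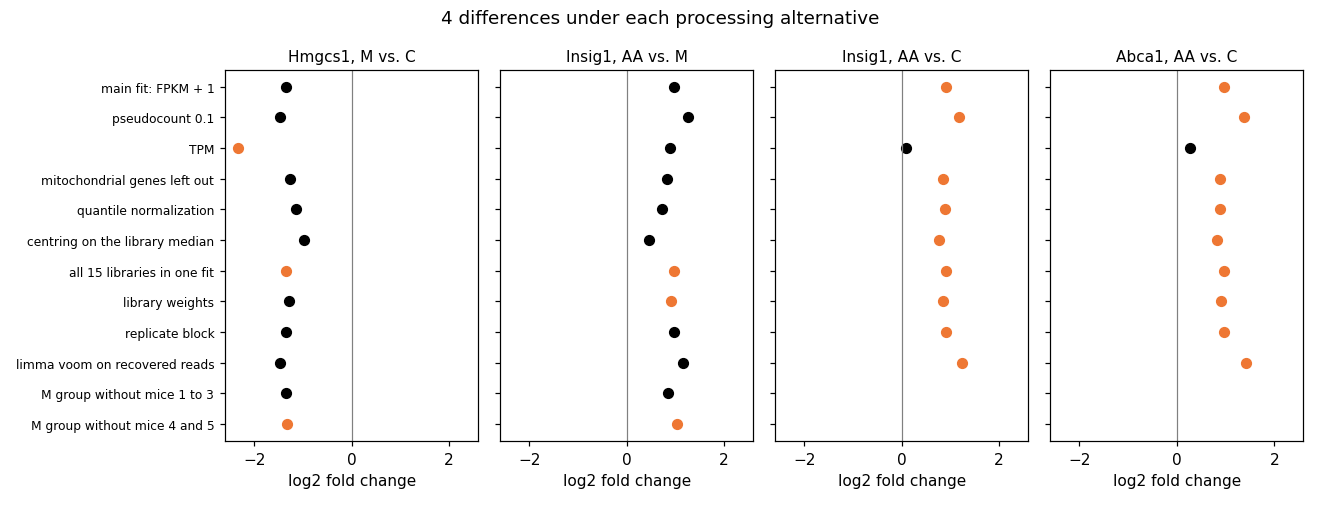
log2 fold change (horizontal axis) of Hmgcs1 for M against C, of Insig1 for AA against M and against C, and of Abca1 for AA against C under each processing alternative (vertical axis); orange points have an adjusted p not above 0.05, and settings on the M libraries do not apply to AA vs. C. Every point keeps its sign, but Insig1 and Abca1 in AA vs. C approach 0 (0.081 and 0.27) with TPM, and Hmgcs1 in M vs. C is at -2.34 with it.

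The other pathway genes gave the context of these 8. In M vs. C, 0 of the 39 others were called by limma, 6 had an unadjusted p under 0.05 (against 16.5% of all genes) and voom called 1, Apoe (against 1.77%). Ebp, which encodes a late sterol isomerase, was the only one of the 39 whose groups did not overlap (against 4.72%). In AA vs. M, 3 of the 38 others tested were called (against 12.8% of all genes), and 2 had groups without overlap (against 13.2%). In AA vs. C, 6 of the 39 were called (against 19.8%) and 10 passed the adjusted p alone (against 35.9%). Cyp51, which encodes lanosterol demethylase, averaged 3.10 ± 0.885 FPKM in C mice, 2.04 ± 1.30 in M mice and 2.90 ± 1.31 in AA mice. Its log2 fold changes were -0.49 (limma adjusted p = 0.454) for M vs. C and 0.36 (adjusted p = 0.520) for AA vs. M.

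Of 21 synthesis enzymes, the 5 members among them included, 17 had a lower mean log2 value in M than in C and 0 were called, with a median log2 fold change of -0.23 beside -0.12 over all genes. For AA vs. M, 11 of 20 tested were higher and 0 called, with a median of 0.14 beside 0.17. In AA vs. C 12 of 21 were lower, with a median of -0.12 beside 0.091. Of the 21, 4 passed the adjusted p alone (against 35.9% of all genes), all lower: Hmgcs1, Fdft1, Mvd and Tm7sf2. Only Mvd, which encodes mevalonate diphosphate decarboxylase, also passed the fold limit (-1.40, adjusted p = 0.0177), 1 of 21 against 19.8% of all genes. Its 5 C libraries lay between 3.13 and 10.6 FPKM, its AA libraries between 0 and 2.67. The M libraries of Mvd lay between 0 and 3.96 FPKM, and AA vs. M was -0.14 (limma adjusted p = 0.771).

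**Figure D4:**
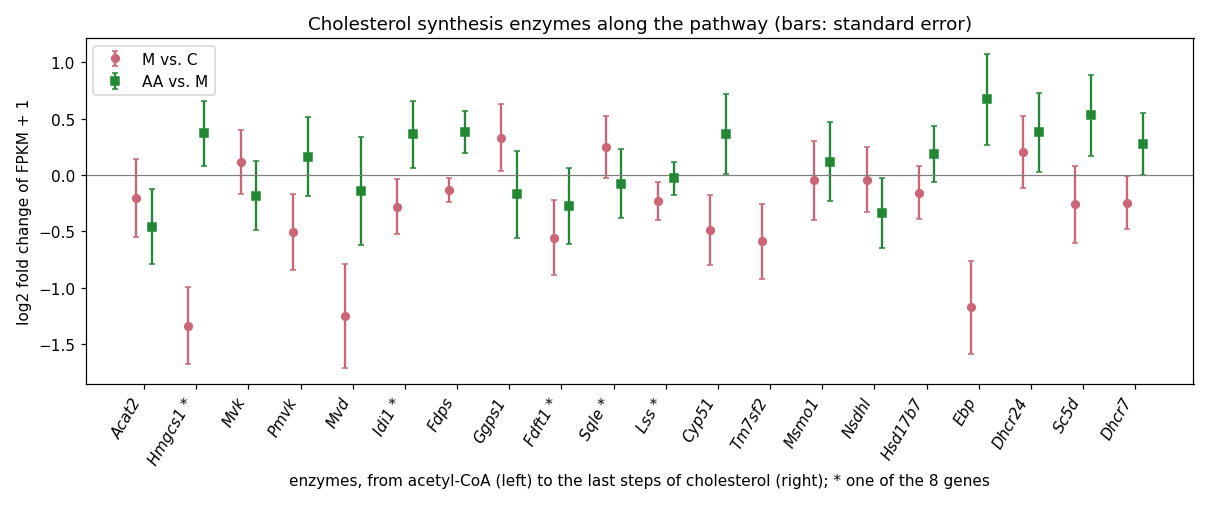
log2 fold change of FPKM + 1 (vertical axis, bars are standard errors) of 20 synthesis enzymes in the order of the route (horizontal axis), for M vs. C and AA vs. M; stars mark the 5 members among them. Hmgcs1 (-1.34), Mvd (-1.25) and Ebp (-1.18) lie lowest in M vs. C, and none of the enzymes shown was called in either comparison.

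Of the 10 genes of SREBP control, 1 was called higher in AA vs. M (against 12.8% of all genes called). This was Stard4, which encodes a carrier of cholesterol between membranes. It had 1.67, 1.65, 1.33, 1.93 and 1.52 FPKM in C mice, 0.463, 1.34, 0.712, 1.34 and 1.05 in M mice and 2.92, 3.16, 3.98, 1.40 and 3.62 in AA mice. Every AA library was above every M library, and the log2 fold change was 1.00 with a standard error of 0.300 (limma adjusted p = 0.0341). The list's median was -0.19 beside 0.17 over all genes, and 8 of the 10 were lower in AA than in M. Srebf1, which encodes SREBP1, the factor of fatty acid synthesis, averaged 2.77 ± 1.15 FPKM in C mice, 1.56 ± 1.16 in M mice and 1.40 ± 1.04 in AA mice, and the log2 fold changes of M vs. C (-0.60, adjusted p = 0.397) and AA vs. C (-0.72, adjusted p = 0.117) did not pass. The medians of this list for M against C and AA against C were 0.010 and -0.0056, and 0 of its 10 genes were called in either (against 1.38% and 19.8% of all genes).

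Of 8 genes of uptake and lysosomal release, 0 were called in M vs. C (median -0.12, against 1.38% of all genes called). In AA vs. M 1 was called higher (median 0.024, against 12.8% called), and in AA vs. C 1 was called higher (median 0.18, against 19.8% called). Lrp1, a large scavenger and lipoprotein receptor, had 14.9, 11.7, 4.46, 13.0 and 18.8 FPKM in C mice 1 to 5. It had 5.08, 7.20, 5.00, 25.9 and 5.88 FPKM in M mice 1 to 5 and 17.5 to 32.5 in AA mice, with M mouse 4 inside the AA range. Its log2 fold change of AA vs. M was 1.43 with a standard error of 0.416 (limma adjusted p = 0.0298). AA vs. C was 0.94 (adjusted p = 0.0404), under the fold limit. Npc2, which hands cholesterol to NPC1 in the lysosome, rose in AA vs. C (1.12, adjusted p = 0.00970). Its M libraries, with 25.1, 17.2, 13.6, 8.40 and 4.22 FPKM, averaged higher still, at a log2 fold change of 1.47 against C that did not pass (adjusted p = 0.113).

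Of 8 genes of efflux, LXR and esterification, 0 were called in M vs. C, where the median was -0.67 beside -0.12 over all genes. In AA vs. M, 1 was called higher (against 12.8% of all genes called) and the median was 0.23. In AA vs. C, 1 was called higher and 3 lower (against 19.8% called), with a median of 0.21. The gene called higher in AA vs. M was Abcg1, which encodes an exporter of cholesterol to HDL. It had 2.45, 0.171, 5.21, 1.06 and 1.08 FPKM in C mice, 0, 0, 0.580, 0.948 and 1.35 in M mice and 2.56, 4.74, 1.16, 2.10 and 1.89 in AA mice. The log2 fold change was 1.16 with a standard error of 0.353 (limma adjusted p = 0.0366), and AA against C was 0.38 (adjusted p = 0.485). The calls of Stard4, Lrp1 and Abcg1 were all lost without M mouse 1 or 3, without M mice 1 to 3 and with TPM, quantile normalization or the mitochondrial genes left out. Apoe, the apolipoprotein of macrophage export, rose in AA vs. C from 63.1 ± 38.1 to 222 ± 110 FPKM (1.83, adjusted p = 0.0114), and its M mean of 229 ± 130 was near the AA mean. Nr1h2 and Nr1h3, which encode the 2 LXR receptors, fell in AA vs. C by 1.66 (adjusted p = 0.00269) and 1.02 (adjusted p = 0.0224) on the log2 scale. Nr1h2 had 8.86 to 26.4 FPKM in the C mice and 1.79 to 4.78 in the AA mice. M mice 1 to 5 had 6.81, 2.11, 4.54, 11.8 and 18.1, and AA vs. M was -0.76 (adjusted p = 0.267). Nr1h3 averaged 6.37 ± 2.97 FPKM in C mice, 2.34 ± 2.32 in M mice and 2.51 ± 0.901 in AA mice. Its log2 fold change was -1.43 in M vs. C (limma adjusted p = 0.216) and 0.42 in AA vs. M (adjusted p = 0.619). Lcat, which encodes an esterifying enzyme of plasma lipoproteins, fell in AA vs. C by 1.81 (adjusted p = 0.000827), from 2.48 to 6.08 FPKM down to 0 to 1.30. Its M mice 1 to 5 had 0, 0, 0, 4.65 and 15.2 FPKM, and AA vs. M was -0.85 (adjusted p = 0.424).

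The mean log2(FPKM + 1) of the 7 genes of synthesis and its control per library was 1.70 ± 0.23 in C mice, 1.39 ± 0.17 in M mice and 1.55 ± 0.18 in AA mice (SD, n = 5), with ranges of 1.49 to 2.03, 1.20 to 1.56 and 1.24 to 1.71. The root mean square difference of a gene's standardised values from the mean standardised profile of the 7, over 15 libraries, was 0.77 for Lss, the nearest of them, and 1.17 for Fdft1, the farthest. Among 6771 protein-coding genes outside the lists with a value above 0 in all libraries the median was 1.33. The 5 most alike were Kidins220 (0.51), Gys1 (0.63), Poll (0.64), Cpt1a (0.64) and Kl (0.64). Each of the 7 is part of the profile it is set against, and these 5 were picked as the nearest of the 6771. Kidins220 averaged 5.20 ± 2.16 FPKM in C mice, 3.65 ± 0.682 in M mice and 4.03 ± 1.05 in AA mice. Cpt1a, which encodes the gate of mitochondrial fatty acid oxidation, averaged 7.91 ± 3.42, 4.00 ± 2.38 and 4.56 ± 1.28 in the same order, and Kl, the Klotho gene, 2.86 ± 2.12, 0.539 ± 0.352 and 1.08 ± 0.390. All 15 libraries share the depth and detection differences between groups given above, so this likeness is a description.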

How the data were processed

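The values are FPKM that the authors deposited for 15 kidneys. Per the labels and methods, poly-A libraries were read as 150 bp pairs, trimmed with fastp, aligned to mm10 with HISAT2 2.0.5 and counted with featureCounts 1.5.0-p3. The authors tested counts with DESeq2, which were not analysed here. Whole reads were recovered from the FPKM steps (96.1% to 98.0% of values up to 200 reads whole within 0.02). The divisor behind the FPKM was 0.518 to 2.30 times the reads on genes and followed the median-of-ratios size factor of the recovered reads within 0.953 to 1.04 times, so the deposited values already carry such a scaling.

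Groups came from the labels. limma 3.58.1 in R 4.3.3 (lmFit, eBayes with trend) was fitted without covariates to the libraries compared, and the fits were tested on simulated data. Other steps used Python 3.11.15, with scipy 1.17.1, matplotlib 3.10.9, pandas 2.3.3 and numpy 2.4.6. Symbols, positions and joined exon lengths are from GENCODE M21, which lacked 37 identifiers. Genes named were the 8 members, pathway genes called in any comparison, Srebf1, Abcg1 and Cyp51, and the 5 genes most alike in profile. Another 2 genes of that rule are not reported here singly. Ebp, Tm7sf2 and the single marker genes were named after their values were seen. The members and lists were chosen with earlier results of these data known. Alternatives changed the pseudocount (0.1 and 0.01), filter, scaling, fit (all 15 libraries, weights, no trend, replicate block, voom on recovered reads) and libraries (subsets of the M mice, each library left out).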

Additional observations from a re-analysis of the deposited data

Results flagged for a closer look

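Of 24 sets of 5 libraries (8 genes in 3 groups), 3 held a library far from the others by Dixon's ratio of the gap to the range. Its critical value is 0.71, which chance exceeds in about 5% of sets of normally distributed values. The ratio was taken on FPKM and not on the log scale, so that share may not hold for these sets. In the C group, Hmgcs1 in C mouse 2 was 35.0 FPKM against 15.6 in the next library (ratio 0.7625). In the AA group, Srebf2 in AA mouse 5 was 3.79 against 2.30 FPKM (ratio 0.7129), and Idi1 in AA mouse 1 was 2.62 against 0.939 FPKM (ratio 0.7625). Without AA mouse 1 the log2 fold change of Idi1 in AA vs. C was -0.15 in place of 0.080.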

How the results depend on the processing

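Counts of genes called moved widely with the scaling and with the M libraries used, of which mice 1 to 3 had few detected genes. In M vs. C, 291 genes were called, against 0 without M mice 1 to 3 (2489 with an unadjusted limma p under 0.05), 3404 without M mice 4 and 5, 110 with a pseudocount of 0.01, 33 with genes above 0 in any library, 448 with a mean FPKM of at least 1 (Idi1 and Lss not tested), 1609 with TPM, 786 with all 15 libraries, 188 with library weights, and 4 (without C mouse 5) to 954 (without M mouse 5) when 1 library was left out. In AA vs. M, 2533 became 422 with TPM, 4007 with voom, 1656 without M mice 1 to 3 and 1805 to 2897 with 1 library left out. In AA vs. C, 4346 became 7474 with a pseudocount of 0.1, 6785 with TPM, 7729 with voom and 3463 to 4770 with 1 library left out. The causes were not tested.

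Members called numbered 0 in each comparison. In M vs. C this became 1 (Hmgcs1) with TPM, with all 15 libraries and without M mice 4 and 5, and stayed 0 with any single library left out. In AA vs. M it became 1 (Insig1) without M mice 4 and 5 and was 0 to 1 with 1 library left out. In AA vs. C it became 4 with either pseudocount and voom, 3 with TPM (Hmgcs1, Srebf2 and Fdft1), 1 (Hmgcs1) with mitochondrial genes left out or centring, and 0 to 2 with 1 library left out (Hmgcs1 and Abca1 without C mouse 3). Pathway genes called in M vs. C went from 0 to 6 with TPM, 3 with all 15 libraries, 1 with voom, 11 without M mice 4 and 5 and 0 to 2 with 1 library left out. In AA vs. M they went from 3 to 1 with a pseudocount of 0.01, with genes above 0 in any library and with centring, to 0 with TPM, quantile normalization or mitochondrial genes left out, and to 0 to 4 with 1 library left out. Without M mice 1 to 3 the 2 called were Nr1h2 and Lcat, both lower.

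The sign turned only for differences of at most 0.37 in size. In M vs. C, TPM gave Sqle -0.41, Srebf2 -0.74 and Abca1 -0.47, library weights gave Srebf2 -0.13, quantile normalization gave Idi1 0.058, Insig1 0.17 and Lss 0.11, centring gave Idi1 0.080, Insig1 0.31 and Lss 0.13, mitochondrial genes left out gave Insig1 0.020, voom gave Insig1 0.093 and Abca1 -0.11, pseudocounts of 0.1 and 0.01 gave Abca1 -0.13 and -0.74, leaving out M mice 1 to 3 gave Srebf2 -0.16 and Insig1 0.058, and leaving out M mice 4 and 5 gave Abca1 -0.098. In AA vs. M, centring gave Hmgcs1 -0.15 and Idi1 -0.15, quantile normalization Idi1 -0.081, library weights Sqle 0.14 and Srebf2 0.086, leaving out M mice 1 to 3 Sqle 0.099 and Srebf2 0.052, and leaving out M mice 4 and 5 Lss 0.079. In AA vs. C, TPM gave Sqle -0.57 and Idi1 -0.56, quantile normalization, centring and weights gave Idi1 -0.071, -0.075 and -0.090. With 1 library left out, ranges that crossed 0 were -0.11 to 0.24 (Srebf2) and -0.20 to 0.12 (Insig1) in M vs. C, -0.19 to 0.089 (Sqle) and -0.080 to 0.015 (Lss) in AA vs. M, and -0.15 to 0.20 (Idi1) in AA vs. C. The median of all genes moved from -0.12 to -0.58 (TPM) and 0.24 (centring) in M vs. C, and from 0.17 to -0.10 (quantile normalization) and -0.35 (centring) in AA vs. M.

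The replicate numbers did not pair the kidneys: same-numbered kidneys correlated at -0.13 to 0.22 in their deviations from the group means, and not every kidney matched its own number best. With the replicate number as a block, 152 genes were called in M vs. C, 2217 in AA vs. M and 4345 in AA vs. C, and pathway genes called in AA vs. M went to 1 (Lrp1), with 0 members called in each.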
